A study of Mus musculus with 24 samples.

Results

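A set of 6 NanoString probes that carry miRNA names but are labelled here as tRNA- or rRNA-like was followed through 24 libraries of mouse colon. They were mmu-miR-720, mmu-miR-1937c, mmu-miR-1983, mmu-miR-2132, mmu-miR-2133 and mmu-miR-2134 (mmu stands for mouse and is left out below), 6 of the 566 mouse miRNA probes in the raw count table, and they were taken by name. Their levels and tumour differences in these libraries were known when they were picked, so their values are given as a description and without a test. All 6 passed the filter on low counts, which kept 563 probes and removed 3.

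The 24 libraries came from 5 tumours and 6 normal mucosa samples of mice whose genotype is labelled APC, and from 6 tumours and 7 normal mucosa samples of mice labelled AOM-DSS. The series' design text names the first model APC;CpC, in which a Cre transgene removes the tumour suppressor Apc in the colon; in the second, the carcinogen azoxymethane (AOM) is combined with dextran sulphate sodium (DSS), an agent that inflames the colon. The design text calls the normal tissue matched; the sources used here do not state the promoter that drives Cre, the strain, sex and age of the mice or the doses. The NanoString nCounter assay counts a coloured tag for each target molecule captured by its probe. Nothing in the labels says that samples of a group came from separate mice, so the spread between libraries may be technical in part.

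Total mouse miRNA counts ran between 47235 in AOM-DSS normal library 22 and 329346, with a median of 251264. Library numbers are those of the raw count table's header. All 11 APC libraries ran on cartridge 1, whereas cartridge 2 held the 7 libraries of AOM-DSS normal mucosa with 2 from AOM-DSS tumours and cartridge 3 held the other 4 AOM-DSS tumours, so model and cartridge cannot be told apart. Of the marker miRNA sums, that for smooth muscle and stroma separated tumours and normal mucosa in both models. The 5 smooth muscle and stroma markers took 1.67% to 2.97% of the counts in APC tumours against 15.3% to 23.4% in APC normal mucosa, and 1.81% to 5.01% in AOM-DSS tumours against 12.3% to 15.8% in AOM-DSS normal mucosa. The 3 measured of 4 intestinal epithelium markers took 1.56% to 2.31% in APC tumours against 3.19% to 4.46% in APC normal mucosa, and 2.94% to 4.35% in AOM-DSS tumours against 2.52% to 4.99% in AOM-DSS normal mucosa. The 5 leukocyte markers took 1.36% to 2.01% in APC tumours against 0.818% to 1.92% in APC normal mucosa, and 1.76% to 3.49% in AOM-DSS tumours against 1.53% to 3.35% in AOM-DSS normal mucosa. The 3 erythrocyte markers took 0.0797% to 0.124% in APC tumours against 0.0671% to 0.1400% in APC normal mucosa, and 0.0930% to 0.324% in AOM-DSS tumours against 0.0769% to 0.163% in AOM-DSS normal mucosa. The part of these shifts in the results below was not tested. In such bulk RNA, fewer cells of a type and less RNA per cell cannot be told apart.

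Transfer RNAs carry amino acids to the ribosome, and ribosomal RNAs build it; both are among the most abundant RNAs of any cell. Their breakdown gives short fragments of about the length of a miRNA, some cut at defined places by nucleases, and several such fragments entered miRNA catalogues after early small RNA sequencing. The sequence named miR-720 in humans is now regarded as a fragment of a threonine tRNA rather than a product of Drosha and Dicer. A hybridisation probe counts whatever RNA end it captures, whether or not that RNA acts as a miRNA.

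The label could be checked against an annotation for 1 of the 6 probes, miR-1983, whose sequence was in the RefSeq tables of build GRCm38.p6. The other 5, miR-720, miR-1937c, miR-2132, miR-2133 and miR-2134, are named only. The miR-1983 sequences are shown because they place this probe's target across the 3′ end of a tRNA gene. Mir1983 lies on the minus strand of chromosome 13, where its hairpin spans chr13:21896918-21897049 and its 21-base mature sequence chr13:21896930-21896950. The isoleucine tRNA gene n-TItat14 spans chr13:21896938-21897031 on the same strand, within the hairpin. In the mature sequence below, capitals mark the seed (bases 2 to 8); in the hairpin they mark the mature sequence; in the tRNA gene they mark the bases shared with the mature sequence.
miR-1983 mature: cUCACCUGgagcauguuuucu
Mir1983 hairpin: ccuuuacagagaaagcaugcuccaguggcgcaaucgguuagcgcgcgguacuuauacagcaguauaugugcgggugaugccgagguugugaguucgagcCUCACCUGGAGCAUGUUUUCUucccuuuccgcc
n-TItat14 tRNA gene: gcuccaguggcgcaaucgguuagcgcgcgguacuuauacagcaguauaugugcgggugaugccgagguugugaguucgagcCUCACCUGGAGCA
The tRNA gene filled positions 19 to 112 of the 132-base hairpin, and the mature sequence positions 100 to 120. The first 13 bases of the mature sequence thus made up the 3′ end of the tRNA gene, and its last 8 bases ran into the flank that follows. Such a 3′ trailer is removed when a precursor tRNA matures, so the printed 21-mer spans the junction of tRNA and trailer. The seed UCACCUG was shared by 2 of the 1738 mature sequences in the table, those of miR-1983 and miR-412-3p.

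The 6 probes spanned a wide range of levels. Averaged over the 24 libraries, miR-720 took 20.9% of all mouse miRNA counts and ranked 1 of 566, ahead of miR-21 with 9.47%. The mean share of miR-1937c was 0.938%, at rank 26. Ranks were 80 for miR-2132 (0.113%), 115 for miR-2134 (0.0399%), 204 for miR-1983 (0.0165%) and 283 for miR-2133 (0.0127%). Probes capture with unequal efficiency, so these shares order the readings and not the RNAs themselves. Background was set per library at the mean plus 2 SD of the 33 viral probes, which gave 8.86 to 65.3 counts with a median of 46.0. The probes for miR-720, miR-1937c and miR-2132 were above it in all 24 libraries, and miR-2134 in all but 1 AOM-DSS tumour. In contrast, miR-1983 and miR-2133 were not above background in any of the 6 APC or 7 AOM-DSS normal libraries. The miR-1983 probe rose above it in 4 of 5 APC tumours and 3 of 6 AOM-DSS tumours, and the miR-2133 probe in 3 of 5 and 2 of 6.

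In APC tumours 3 of the probes were lower than in APC normal mucosa and 3 were higher. The probe for miR-720 had 21662, 24887, 21930, 26720 and 51101 counts in the 5 APC tumours, libraries 7 to 11. In the 6 APC normal libraries its lowest, median and highest counts were 52840, 64742 and 75932. Every tumour lay below every normal library, and tumour library 11 came close to the lowest of them. As a share of all mouse miRNA counts, miR-720 took 16.1%, 9.50%, 8.36%, 10.97% and 21.4% in the tumours (exact 95% binomial interval of the last 21.3% to 21.6%, which covers counting error only), against 24.01% to 26.01% in normal mucosa. The tumours were thus spread widely, with an SD of 5.44 percentage points (n = 5), whereas the 6 normal libraries lay within a narrow band (SD 0.705). The fitted log2 fold change, on counts scaled by the trimmed mean of M-values (TMM), was -1.55 ± 0.30 (SE). It was -2.07 without tumour libraries 7 and 11, a choice made after the data were seen.

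**Figure D1:**
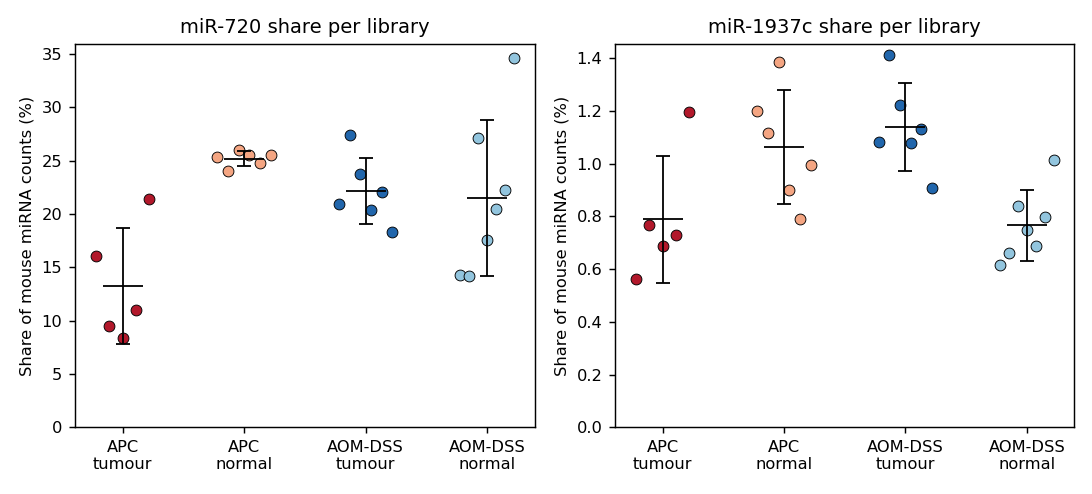
Share of all mouse miRNA counts taken by miR-720 (left) and miR-1937c (right), in percent, for each library (points) with the mean and SD of each group (bars). The miR-720 share was 8.36% to 21.4% in APC tumours and 24.01% to 26.01% in APC normal mucosa, while the AOM-DSS groups overlapped.

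The probe for miR-1937c, a name whose sequence is not printed here, had 760, 2006, 1801, 1781 and 2851 counts in APC tumours 7 to 11. Its counts in APC normal mucosa ran between 2268 and 3197, with a median of 2716. Tumour library 11 stood among the normal libraries and the other 4 tumours lay below them. After TMM scaling, miR-1937c averaged 6525 ± 3085 CPM (counts set to a common scaled library total) in tumours and 13409 ± 3175 CPM in normal mucosa (SD, n = 5 and 6), a log2 fold change of -1.04 ± 0.25. As plain shares of the total the groups overlapped, with 0.564% to 1.20% in tumours and 0.789% to 1.39% in normal mucosa.

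Counts of miR-2134 were 80, 62, 73, 71 and 108 in APC tumours 7 to 11, against 110 to 197 in APC normal mucosa. The highest tumour count was just under the lowest normal one. All 5 tumours were above background, but libraries 8, 9 and 10 only by a little (backgrounds of 59.7, 62.4 and 55.9). The size of the difference is therefore uncertain. The scaled levels were 291 ± 109 CPM in tumours and 738 ± 141.9 CPM in normal mucosa, with a log2 fold change of -1.36 ± 0.23. It was -1.79 without libraries 7 and 11, again a choice made after the data were seen. Its plain share overlapped between the groups, because tumour libraries 7 and 11 reached 0.0594% and 0.0453%; library 7 was the shallowest of the APC model.

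The other 3 probes were higher in APC tumours. The tRNA-overlapping miR-1983 had 47, 64, 78, 73 and 72 counts in tumours 7 to 11, and 13 to 19 counts with a median of 14.5 in normal mucosa. The ranges were far apart, but all normal counts lay at the level of the viral probes, so the size of the difference is uncertain. Its fitted log2 fold change was 1.64 ± 0.20 (236 ± 36.7 CPM in tumours, 76.0 ± 12.9 CPM in normal mucosa). With each normal library set at its background and tumours at their measured levels, miR-1983 was 1.42-fold higher in tumours. Of the 5 tumours, 4 measured it above background. Tumour library 7 did not, so the value is no strict lower bound.

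Counts of miR-2132 were 150, 362, 335, 246 and 301 in the tumours and 51 to 166, with a median of 87.5, in normal mucosa. Only tumour library 7 fell inside the normal range of counts. The level was 969 ± 221 CPM in tumours and 478 ± 230.3 CPM in normal mucosa, a log2 fold change of 1.03 ± 0.25. For miR-2133 the tumours had 9, 62, 55, 89 and 106 counts and normal mucosa 10 to 22, with a median of 13.5. Tumour library 7 was below all normal libraries, and the other 4 were above them. The fitted log2 fold change was 1.69 ± 0.38. With normal libraries set at background, miR-2133 was 1.06-fold higher in tumours, and 3 of 5 tumours measured it above background. Tumour libraries 7 and 9 did not, so this is no strict lower bound either.

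**Figure D2:**
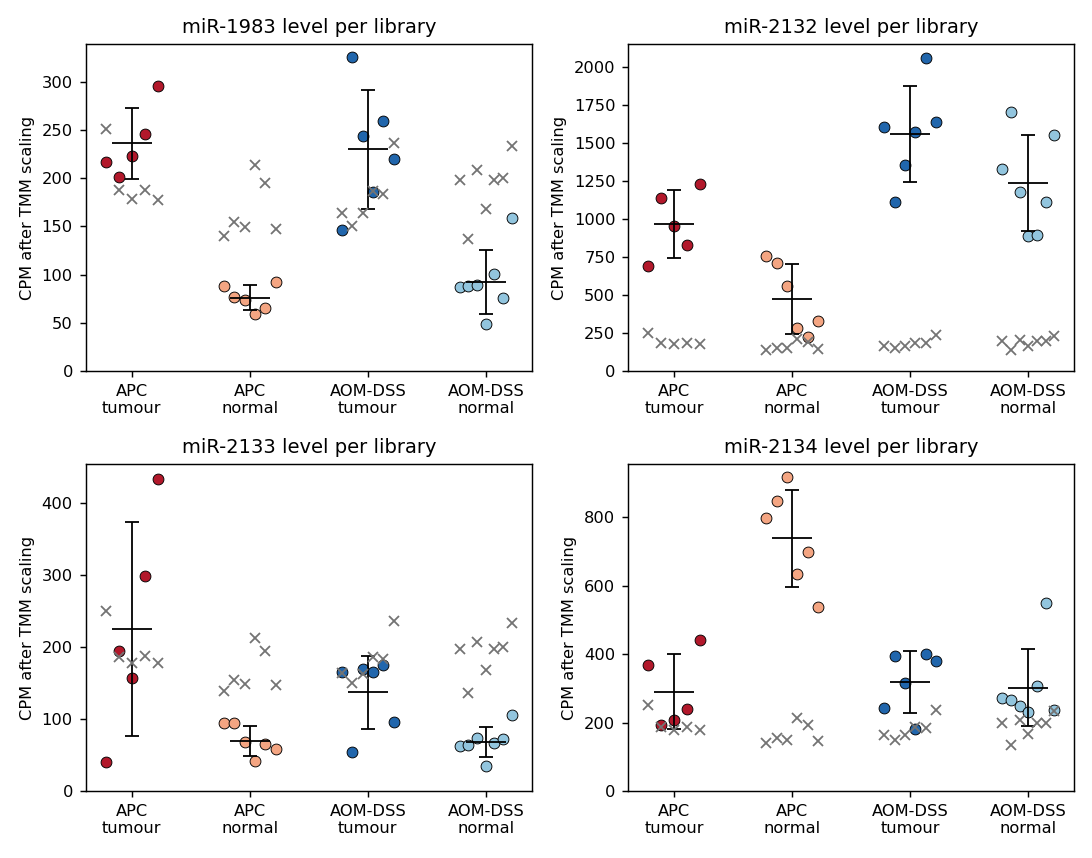
Level of the 4 dimmer probes in each library (filled points, CPM after TMM scaling), the group mean and SD (bars), and each library's background from the viral probes on the same scale (grey crosses). For miR-1983 and miR-2133 every normal library lies under its own cross, while miR-2132 lies above it in all 24 libraries.

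In the edgeR quasi-likelihood fit over all probes, 21.8% of the 563 tested passed an adjusted p of 0.05 between APC tumours and APC normal mucosa (9.24% higher, 12.6% lower). Of the 6 probes, 3 passed as higher and 3 as lower; since they were chosen with this contrast known, the count is a description. Their median log2 fold change was -0.00 and their median absolute log2 fold change 1.46, beside 0.04 and 0.28 over all 563 probes. Ranges of scaled CPM did not overlap for 12.9% of the 566 probes, and among the 6 for miR-720, miR-2134 and miR-1983. Scaling by the library total alone moved the median of all probes to 0.69. On that scale the 3 lower probes stood at -0.93 (miR-720), -0.43 (miR-1937c) and -0.71 (miR-2134), and the 3 higher ones at 2.29 (miR-1983), 1.67 (miR-2132) and 2.26 (miR-2133), so no direction turned.

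In AOM-DSS tumours the pattern was narrower. The probes for miR-1983 and miR-2133 were higher than in AOM-DSS normal mucosa, while the fitted differences of the other 4 were less than 2 standard errors from 0. Counts of miR-1983 had a lowest, median and highest value of 30, 51 and 60 in the 6 tumours, and of 6, 23 and 33 in the 7 normal libraries. The count ranges met at a single tumour, library 23, while the plain shares did not overlap (0.0176% to 0.0310% in tumours, 0.00448% to 0.0127% in normal mucosa). The fitted log2 fold change was 1.43 ± 0.18, over normal libraries that again all lay at background. With normal libraries set at background, miR-1983 was 1.17-fold higher in tumours. Only 3 of 6 tumours measured it above background, so this is no strict lower bound. Within cartridge 2, where 2 tumours stood beside the 7 normal libraries, the value was 1.43 ± 0.26.

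Counts of miR-2133 were 10, 31 and 42 at the lowest, median and highest AOM-DSS tumour, and 4, 18 and 23 in normal mucosa. Tumour library 24 lay among the normal libraries. The fitted log2 fold change was 1.11 ± 0.38; no bound can be given, since only 2 of 6 tumours were above background and the dim group's background was the higher value. Within cartridge 2 it was 0.77 ± 0.57 and did not pass the threshold, and 17 of the 24 fits that each left out 1 library lost the call.

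The most abundant probe, miR-720, had 35659, 41838 and 53101 counts at the lowest, median and highest AOM-DSS tumour, against 16350, 54936 and 82269 in AOM-DSS normal mucosa. The tumours lay inside the spread of the normal libraries, whose shares ran between 14.2% and 34.6% (interval of the highest 34.2% to 35.0%); the highest share was that of library 22, which had the lowest total. The log2 fold change was -0.22 ± 0.27. It was 0.32 ± 0.23 for miR-1937c (10413 ± 2752 CPM in tumours, 8346 ± 2254 CPM in normal mucosa), 0.35 ± 0.22 for miR-2132 (1559 ± 316 and 1239 ± 313 CPM) and 0.04 ± 0.22 for miR-2134 (319 ± 90.1 and 302 ± 112 CPM; SD, n = 6 and 7). Scaled to the 4 mRNA probes Actb, B2m, Gapdh and Rpl19, where the median of all probes was -0.40, these values became -0.75, -0.20, -0.13 and -0.41, so miR-1937c, miR-2132 and miR-2134 turned direction with the scale and miR-720 passed as lower. The tumours' counts of those mRNA probes had a geometric mean of 1166 to 1755, against 151 to 1545 in AOM-DSS normal mucosa.

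Across all probes 17.1% passed between AOM-DSS tumours and normal mucosa (8.53% higher). Of the 6, 2 passed as higher and 0 as lower, again a description. Ranges of scaled CPM did not overlap for 9.19% of all probes and for 0 of the 6.

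Together the 6 probes took 9.25% to 22.9% of the counts in APC tumours against 25.3% to 27.5% in APC normal mucosa, nearly all of it miR-720. In the AOM-DSS model they took 19.6% to 29.0% in tumours and 15.1% to 35.8% in normal mucosa, and the ranges overlapped. With miR-720 taken out of the total, the other 5 together made up 0.926% to 1.84% of the counts left in APC tumours and 1.16% to 2.05% in APC normal mucosa. For AOM-DSS the same quantity was 1.48% to 2.19% in tumours and 0.926% to 1.80% in normal mucosa. On this basis miR-1983 stayed apart in both models, with 0.0270% to 0.0416% in APC tumours against 0.00694% to 0.00905% in APC normal mucosa and 0.0223% to 0.0426% in AOM-DSS tumours against 0.00543% to 0.0194% in AOM-DSS normal mucosa.

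**Figure D3:**
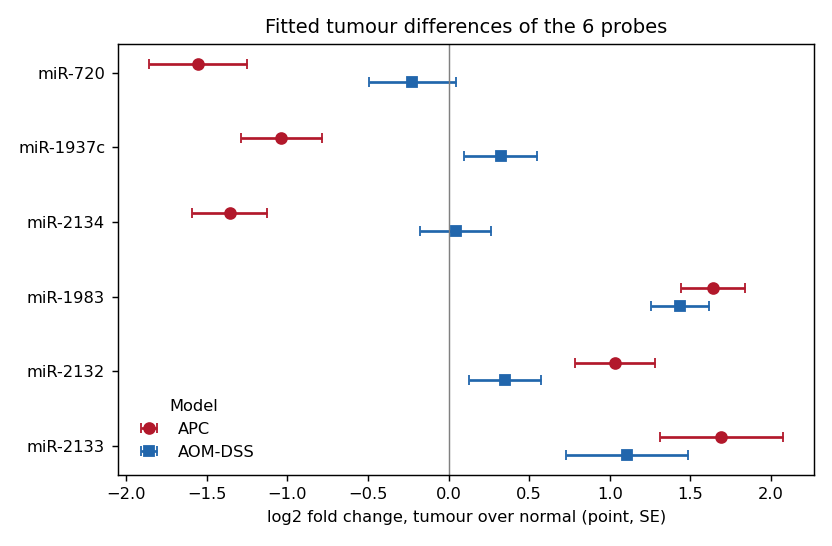
Fitted log2 fold change (point) and SE (bar) of tumour over normal mucosa for each of the 6 probes in the APC model and the AOM-DSS model. In APC the first 3 probes lie below 0 and the last 3 above it; in AOM-DSS miR-720, miR-1937c and miR-2134 lie near 0 while miR-1983 stays at 1.43.

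The tumour effects of the models were set against each other as AOM-DSS minus APC, in which every library enters on 1 side only. The difference was 1.33 ± 0.40 on the log2 scale for miR-720, 1.36 ± 0.34 for miR-1937c and 1.40 ± 0.32 for miR-2134, the 3 probes that were lower in APC tumours. For the 3 probes that were higher there, the difference was -0.21 ± 0.27 (miR-1983), -0.68 ± 0.34 (miR-2132) and -0.59 ± 0.55 (miR-2133). The first 3 passed the threshold, as did 6.75% of all probes, and the other 3 did not. For miR-720 the call was narrow: 18 of the 24 fits that left out 1 library lost it, with differences of 1.18 to 1.72 over the 24, and within cartridges 1 and 2 the value was 1.47 without passing. Scaled to the mRNA probes, where the median difference was -0.46, the values of miR-720, miR-1937c and miR-2134 were 0.86, 0.76 and 0.94, and none of the 3 passed; none of the 3 passed with background subtracted either. In both settings miR-2132 alone of the 6 passed, as lower.

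The normal mucosa of the models was compared as well. Between AOM-DSS normal and APC normal mucosa, miR-2134 averaged 302 ± 112 CPM in AOM-DSS and 738 ± 141.9 CPM in APC, a log2 fold change of -1.25 ± 0.21, the lowest of all 563. All 7 AOM-DSS libraries measured miR-2134 above background, but library 18 (64 counts over 53.3) and library 22 (9 over 8.86) only by a little. The size of this difference is therefore uncertain. Counts ran between 9 and 175 with a median of 66 in AOM-DSS normal libraries, against 110 to 197 in APC; 6 of the 7 AOM-DSS libraries were below all APC libraries on the CPM scale, the exception being library 21. In the opposite direction, miR-2132 averaged 1239 ± 313 CPM in AOM-DSS normal and 478 ± 230.3 CPM in APC normal mucosa. Its log2 fold change of 1.37 ± 0.24 ranked 3 of 563 from the highest, and all 7 AOM-DSS libraries were above all 6 APC libraries. Of the 6, these 2 passed, beside 3.37% of all probes, and ranges of scaled CPM did not overlap for 2.12%. The log2 fold changes of the other 4 were -0.42 ± 0.27 (miR-720), -0.69 ± 0.23 (miR-1937c), 0.16 ± 0.21 (miR-1983) and -0.12 ± 0.43 (miR-2133). This comparison shares its normal libraries with the tumour comparisons, and its groups ran on separate cartridges.

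The count of miR-2132 per count of miR-2134 within a library does not depend on scaling. It was 2.82 to 8.65 in AOM-DSS tumours, 2.03 to 6.56 in AOM-DSS normal mucosa and 1.88 to 5.84 in APC tumours. In APC normal mucosa it was 0.319 to 0.949. The highest AOM-DSS values rest on miR-2134 counts near background, which was not subtracted. These counts were 46 in tumour library 26 (background 47.3) and 9 in normal library 22 (background 8.86). The ratio was below 1 in the 6 APC normal libraries and above 1 in the other 18; since probes capture with unequal efficiency, it compares libraries and not the levels of the RNAs.

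Between AOM-DSS tumours and APC tumours 0 of the 6 probes passed the edgeR test, against 8.7% of all probes, and ranges of scaled CPM overlapped for all 6 while they did not for 4.06% of the 566. At an unadjusted p under 0.05, 104 of the 563 probes stood out, 4 of the 6 among them, and DESeq2 called 1 of the 6. The log2 fold changes, AOM-DSS over APC, were 0.91 ± 0.30 for miR-720, 0.67 ± 0.25 for miR-1937c, 0.69 ± 0.25 for miR-2132, -0.71 ± 0.34 for miR-2133, 0.15 ± 0.24 for miR-2134 and -0.05 ± 0.17 for miR-1983. The last had 229.7 ± 62.0 CPM in AOM-DSS tumours and 236 ± 36.7 CPM in APC tumours, a gap smaller than the spread of either group. Without APC tumour libraries 7 and 11, a choice made after the data were seen, 2 of the 6 passed.

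Within groups the readings of the probes did not vary as 1 block. Over the 24 libraries, deviations of log2 CPM from the group mean gave a Pearson r of 0.78 between miR-720 and miR-1937c, 0.60 between miR-720 and miR-1983, and 0.55 between miR-1937c and miR-1983. The r was 0.54 between miR-2132 and miR-2133 but 0.02 between miR-720 and miR-2132, 0.27 between miR-720 and miR-2134 and -0.05 between miR-2133 and miR-2134. These values are descriptive: the points share library, depth and scaling factor, and the largest probe takes part in every total. Readings of miR-1983 and miR-2133 were not above background in any normal library. Values of r with either probe thus cannot tell whether the RNAs varied together or apart.

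The probe most like miR-720 in this measure was miR-741 (r = 0.93), a miRNA of an X-linked cluster known from testis, followed by miR-1274a (r = 0.83), a name traced in humans to a tRNA. Of all libraries none had miR-741 at or below background. Its counts per 1000 counts of miR-720 were 2.45 to 3.83 in APC tumours and 2.08 to 2.90 in APC normal mucosa. They were 2.53 to 3.09 in AOM-DSS tumours and 2.19 to 3.00 in AOM-DSS normal mucosa. This was a narrow range beside that of miR-720 itself, but the APC tumour median of 3.62 lay above every library of the other groups. Background was not subtracted from these ratios. Counts of miR-741 were 78 to 125 in APC tumours, over backgrounds of 43.4 to 62.4. In APC normal mucosa they were 110 to 188, over backgrounds of 20.7 to 50.7. The part of background in the higher APC tumour ratio was not tested. Like miR-720, miR-741 was lower in APC tumours (347 ± 104 CPM, against 810.3 ± 59.9 CPM in APC normal mucosa), with a log2 fold change of -1.23 ± 0.20 and an adjusted p of 8.18e-06 in the edgeR test. In AOM-DSS tumours it had -0.04 ± 0.19, and the difference between the models was 1.20 ± 0.27 (edgeR, adjusted p = 0.00428). As a plain share it was 0.0320% to 0.0579% in APC tumours and 0.0527% to 0.0709% in APC normal mucosa.

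**Figure D4:**
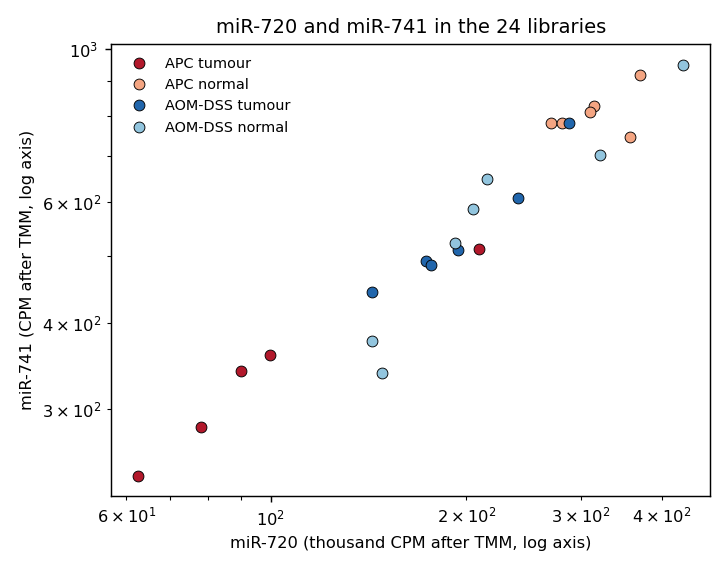
Level of miR-741 against miR-720 in each of the 24 libraries (CPM after TMM scaling, log axes), coloured by group. The 2 levels rise together, with most APC tumours at the low end and APC normal mucosa near the high end. Relative to miR-720, the median miR-741 level of APC tumours lies above every library of the other groups, with background not subtracted.

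For miR-1937c the most alike probe was that for miR-1937a and miR-1937b (r = 0.89), then miR-1274a (r = 0.82). There were 34.4 to 67.1 counts of miR-1937c per 100 counts of that probe over all 24 libraries. For miR-1983 they were miR-92b (r = 0.76) and miR-1274a (r = 0.66), of which miR-92b was above background in 0 of 24 libraries. For miR-2132 they were miR-342-3p (r = 0.73), a miRNA abundant in lymphocytes, and miR-1944 (r = 0.68). The probes closest to miR-2133 were miR-103 and miR-1944 (r = 0.69 each), and those closest to miR-2134 were miR-212 (r = 0.66) and miR-1936 (r = 0.57), neither above background in any library.

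A further 10 probes carry neighbouring names, miR-1937a and miR-1937b on a shared probe and names between miR-2131 and miR-2146. In APC tumours 2 of these 10 rose, 2 fell and 6 did not pass (edgeR, adjusted over all 563 probes), with a median log2 fold change of 0.19 beside 0.04 over all probes. In AOM-DSS tumours 1 rose and 9 did not pass. Over all probes 21.8% passed in APC tumours and 17.1% in AOM-DSS tumours. The probe for miR-1937a and miR-1937b, the brightest of the 10 with a mean of 4648 counts, fell by 1.04 ± 0.31 on the log2 scale in APC tumours (edgeR, adjusted p = 0.018) and stood at 0.23 ± 0.28 in AOM-DSS tumours. The probe for miR-2135 (mean 85.4 counts) rose by 0.93 ± 0.25 in APC tumours (edgeR, adjusted p = 0.00488). The next by count, miR-2141 and miR-2146, had log2 fold changes of 0.18 ± 0.17 and 0.15 ± 0.18 there. The other calls, named after their values were seen, were miR-2137, as higher in both models, and miR-2140, as lower in APC tumours. Each had at least 1 group wholly at background, so no fold is given: miR-2137 was above it in 1 of 5 APC tumours and 0 of 6 APC normal libraries and in 1 of 6 AOM-DSS tumours and 0 of 7 AOM-DSS normal libraries, and miR-2140 in 0 of 5 APC tumours and 5 of 6 APC normal libraries. By the library total alone, which moved the median of all probes to 0.69, 8 of the 10 passed as higher in APC tumours and 0 as lower, beside 353 higher and 25 lower of all 563. No probe of the 10 passed in the edgeR test of the difference between the models or of the normal or tumour tissues between models (0, 0 and 0); 2, 1 and 1 had an unadjusted p under 0.05, and DESeq2 called 1, 1 and 0.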

How the data were processed

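The authors deposited raw counts per probe for 24 libraries, and a value table of scaled signal in which each of the 24 columns equals a raw column times a constant (counts of 0 taken as 1; SD of the natural log of the ratio under 1e-06), per the file headers and values. RNA came from paraffin-embedded tissue per the labels' protocols but from frozen tissue per the design text. The software is not given in the sources used here. Columns of other series numbered 0. The raw headers give each library's group, and 6 columns match 1 sample by name.

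Counts of 566 mouse probes were filtered (edgeR filterByExpr, min.count 10, min.total.count 15), TMM-scaled and fitted in 1 robust quasi-likelihood model of 4 groups (R 4.3.3, edgeR 4.0.16), adjusted after Benjamini and Hochberg over 563 probes at 0.05. The SE was taken as the size of the log2 fold change over the root of F. CPM are counts per 1000000 of the TMM-scaled library total. The procedure was tested on simulated data. Alternatives used DESeq2 1.42.0 and limma 3.58.1. The latter ran on log2 of the deposited scaled signal plus 1 or, with background subtracted, on log2 CPM of TMM-scaled counts. In that setting each library's mean of the viral probes, without the 2 SD, was taken off, and counts under 1 were set to 1. Likeness used log2 CPM with a prior count of 2. Replicates never agreed within sampling noise (lowest chi-square per degree of freedom 3.30).

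Named probes were the 6, the 2 most alike for each, neighbouring names (values for the 4 with the highest mean count) and the mRNA probes. The 6 probes and the lists were chosen with earlier results of these data known.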

Additional observations from a re-analysis of the deposited data

Results flagged for a closer look

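In APC tumours, library 11 stood far from the other 4 for miR-720, with 209491 CPM after TMM scaling against 99694 CPM in the next highest. Its smooth muscle and stroma and leukocyte marker shares lay within the range of the other APC tumours. Its intestinal epithelium share was 2.25%, beside 2.31% in library 7 and 1.56%, 1.69% and 1.67% in libraries 8, 9 and 10. Its erythrocyte share of 0.0797% was the lowest of the APC tumours. The part of tissue make-up in the miR-720 value was not tested. Among AOM-DSS normal libraries, library 21 stood apart for miR-2134, with 549 CPM against 307 CPM in the next highest. In all, 24 combinations of probe and group were examined and 2 stood out; chance flags about 1 in 20. By the interaction term of the 4-group model (AOM-DSS minus APC), miR-720 (1.33), miR-1937c (1.36) and miR-2134 (1.40) passed, on the log2 scale, as did 6.75% of all probes. These probes were chosen with their tumour differences known, so this is a description. None of them passed when scaled to the mRNA probes or with background subtracted. For miR-720, 18 of the 24 fits that left out 1 library lost the call. Model and cartridge cannot be told apart.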

How the results depend on the processing

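The 3 higher and 3 lower calls among the 6 probes in APC tumours held in each of the 39 alternatives run. In AOM-DSS tumours the count of 2 became 1 with DESeq2 size factors and without the filter. It also became 1 within cartridges 1 and 2 and with a term for cartridge 3, and 4 by library total alone. Scaled to the mRNA probes the count stayed 2, but as 1 higher (miR-1983) and 1 lower (miR-720), and the miR-2133 call was lost. The difference between the models lost all 3 of its higher calls when scaled to the mRNA probes or with background subtracted, and 1 other probe, miR-2132, passed there as lower; by library total alone miR-2134 was lost and miR-2132 passed as lower. Between tumours the count of 0 became 1 with DESeq2, mRNA scaling, only the groups compared or without the shallowest library, and 2 by library total alone, with the viral background filter, on the authors' scaled values and without APC tumour libraries 7 and 11. Leaving out each library gave 6 to 6 in APC, 1 to 2 in AOM-DSS, 2 to 3 for the difference, 2 to 3 between normals and 0 to 2 between tumours. The miR-720 difference passed without library 11, 18, 20, 22, 23 or 28 only; without library 11, 17, 20, 22 or 28 miR-720 also passed between tumours, and miR-1937c passed there without 11, miR-2132 without 5 and miR-2133 without 7. In normals miR-1937c passed without library 11 or 22. The miR-2133 call in AOM-DSS tumours held without library 7, 9, 10, 11, 22, 24 or 28 and was lost without each of the other 17. Among the 10 neighbouring names, leaving out a library gave 2 to 4 calls in APC and 0 to 1 in AOM-DSS. The causes were not tested.

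Same-numbered samples correlated by -0.33 to 0.12 and in 0 of 11 cases best with their own number. This gave no sign that the numbers pair the samples. It cannot exclude pairing, since tumour and normal tissue of the same mouse need not vary together. With a replicate block, the authors' scaled values gave 6, 1, 3, 3 and 2 of the 6 probes. The order is APC, AOM-DSS, difference, normals and tumours. Over all probes the block gave 111, 72, 38, 28 and 40 calls, against 130, 91, 37, 25 and 40 without it. For normals and tumours it grouped samples by number across both models. Mice of different models thus shared a block, and these counts rest on an arbitrary grouping.

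With background subtracted, here each library's mean of the viral probes alone, mean shares became 26.1% for miR-720 and 27.3% for the sum of the 6 in APC normal mucosa. For miR-1983 they became 0.0178% in APC tumours, 0.000200% in APC normal, 0.0152% in AOM-DSS tumours and 0.000850% in AOM-DSS normal mucosa. For miR-2133 they became 0.000294% in APC normal, 0.00594% in AOM-DSS tumours and 9.53e-06 percent in AOM-DSS normal mucosa, where counts of both probes lie at the level of the viral probes. Over all probes, 123 calls in APC became 378 (353 higher) by library total and 74 by mRNA scaling. The 96 in AOM-DSS became 58 and 60 with the cartridge settings and 60 with background subtracted, and of 121 by mRNA scaling 10 were higher. The 38 for the difference became 61 by library total, 20 with background subtracted, and 17 and 18 with the cartridge settings. The 19 between normals became 41, 4, 6 and 35 by library total, mRNA scaling, background subtraction and viral filter, and the 49 between tumours 10 and 16 with the cartridge settings and 25 with background subtracted. Leaving out each library gave 30 to 57 for the difference, 8 to 21 between normals and 28 to 52 between tumours.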
